A study of Caenorhabditis elegans with 16 samples.

Results

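The difference in auxin response between *syp-2::AID* and N2 worms was measured for every gene as the change on auxin plates in *syp-2::AID* worms minus the change on auxin plates in N2 worms, both on the log2 scale. A positive value marks a response that is higher in *syp-2::AID* worms and a negative value one that is lower, and it may come from a larger, a smaller or an opposite change. All 16 of the 16 RNA sequencing libraries of the series enter this difference, 4 biological replicates in each of 4 groups, and 11776 of the 42048 genes in the count table had enough reads to be tested. Each library came from 50 whole adults, 18 to 24 h after the L4 stage, which spent 4 h either on 4 mM auxin plates or on control plates lacking auxin.

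*syp-2::AID* worms carry a degron tag on SYP-2 and express TIR1, a plant F-box protein, from the *sun-1* promoter in the germ line, while N2, the wild-type strain, has neither. Solvent in the control plates is not given in the sources used here. In the auxin-inducible degron system, TIR1 binds a degron-tagged protein once auxin is present and has it ubiquitylated and destroyed by the proteasome. SYP-2 is a central-region protein of the synaptonemal complex (SC), which holds homologous chromosomes together in meiotic prophase, and worms that lack a functional SC show more germ cell death. The response of N2 worms holds what auxin plates do to a worm without the degron, so the difference between strains is the part of the response that N2 worms did not share. It also holds anything else in which the strains differ, since the degron strain without TIR1 or without the tag is not among the samples. In bulk RNA from whole worms, fewer cells of a type and less RNA per cell cannot be told apart.

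Total counts per library lay between 13964761 and 18741524. Of the *syp-2::AID* auxin group, replicates 3 and 4 differed from the remaining 14 libraries and are called the outlying pair below. Genes for ribosomal proteins made up 20.4% and 20.6% of the reads in this pair, compared with 12.3% to 16.5% in the rest, whereas the yolk protein (vitellogenin) genes took 5.39% and 5.17%, compared with 7.62% to 9.68%. In both, the deviation from the mean library fell with exon length across genes (Spearman's rho -0.55 and -0.63), a description of these libraries only, since genes are not independent replicates. Results are therefore also given without both. The *syp-2* transcript does not check the labels, because the degron acts on the protein. It was at 24.3 to 28.3 CPM (reads of a gene relative to the library total, after TMM scaling in edgeR) in *syp-2::AID* worms on auxin and at 22.3 to 27.04 CPM without it, and its response differed between the strains by -0.13 (95% interval -0.44 to 0.18).

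With an adjusted p under 0.05 in edgeR's quasi-likelihood test, fitted to the 16 libraries together, the auxin response differed between the strains for 2 genes, 0.017% of those tested. *egl-1*, which encodes the BH3-only protein that starts apoptosis in the worm, had the higher response in *syp-2::AID* worms, and *cht-1*, which encodes a chitinase, the lower one (0.00849% of the tested genes in each direction). For both, the fitted changes in the strains had opposite signs. Both also passed with DESeq2 (adjusted p = 7.99e-05 for *egl-1* and 1.82e-07 for *cht-1*), and neither did with plain limma-voom (adjusted p = 0.0871 for each). At an unadjusted p under 0.05 there were 1331 genes with a higher response (11.3%) and 738 with a lower one (6.27%), 17.6% of those tested together, and these are used below only as counts. Their balance depended on the scaling and the tool, with 575 higher and 1430 lower when libraries were scaled by their totals alone, and 1090 and 1240 with limma-voom and sample quality weights.

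*egl-1* was at 2.52, 3.11, 5.36 and 2.71 CPM in *syp-2::AID* worms with auxin and at 0.303, 0.523, 0.811 and 0.539 CPM without it. In N2 worms it was at 0.796, 0.710, 0.499 and 0.914 CPM with auxin and at 1.18, 0.807, 1.18 and 0.868 CPM without it. Every auxin-treated *syp-2::AID* library thus lay above all 12 others, while the N2 groups overlapped. Across all genes, the auxin libraries lay above all untreated ones for 7.75% in *syp-2::AID* worms and 8.79% in N2 worms, and below them for 5.27% and 8.41%. The log2 response was 2.62 (standard error (SE) 0.32, edgeR adjusted p = 4.22e-05) in *syp-2::AID* worms and -0.46 (SE 0.34, adjusted p = 0.508 from edgeR) in N2 worms. Their difference was 3.08 (SE 0.47, 95% interval 2.1 to 4.07, adjusted p = 0.0304 from edgeR). Without the outlying pair it was 2.80 (95% interval 1.82 to 3.79, adjusted p = 0.1003 from edgeR), which did not pass. *egl-1* is a gene of low level, and the threshold was passed in 3 of the 16 fits that left out 1 library, with differences of 2.79 to 3.34.

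*cht-1* was at 74.6, 52.4, 51.3 and 30.3 CPM in auxin-treated N2 worms and at 20.2, 17.1, 13.5 and 20.4 CPM in untreated ones. In *syp-2::AID* worms it was at 23.9, 23.01, 20.2 and 22.2 CPM with auxin and at 26.6, 27.2, 36.3 and 39.9 CPM without it. The groups did not overlap in either strain, auxin being above in N2 worms and below in *syp-2::AID* worms, a pattern of non-overlap in opposite directions that 22 genes (0.187% of those tested) showed. All untreated *syp-2::AID* libraries lay above the untreated N2 ones, so the untreated levels also enter the difference. *cht-1* rose in N2 worms (log2 response 1.55, adjusted p = 0.000216 from edgeR), and its response in *syp-2::AID* worms was -0.54 (adjusted p = 0.115 from edgeR). The difference was -2.09 (SE 0.30, 95% interval -2.73 to -1.45, adjusted p = 0.0304 from edgeR), and -2.02 without the outlying pair (adjusted p = 0.259 from edgeR). It passed in 3 of the 16 fits that left out 1 library. *slcf-2* overlaps *cht-1* on the other strand, and without a known strand setting for the counting, reads of these genes cannot be told apart.

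Without the outlying pair, 12193 genes were tested with edgeR, none had a higher response past the threshold and 1 had a lower one (0.0082%), with 404 (3.31%) and 577 (4.73%) genes at an unadjusted p under 0.05. In that fit *Y37H2A.14* had the smaller response in *syp-2::AID* worms, with log2 responses of 0.37 there and 1.89 in N2 worms and a difference of -1.52 (adjusted p = 0.0423 from edgeR). It was at 17.7, 22.02, 21.5 and 18.3 CPM in auxin-treated N2 worms and at 7.06, 4.84, 4.88 and 4.68 CPM in untreated ones. In auxin-treated *syp-2::AID* worms the 2 libraries kept were at 8.07 and 8.96 CPM and the 2 left out at 19.6 and 15.8 CPM, against 5.88, 6.38, 6.87 and 7.31 CPM without auxin. With all 16 libraries the difference was -0.91 (adjusted p = 0.225 from edgeR) and did not pass.

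**Figure D1:**
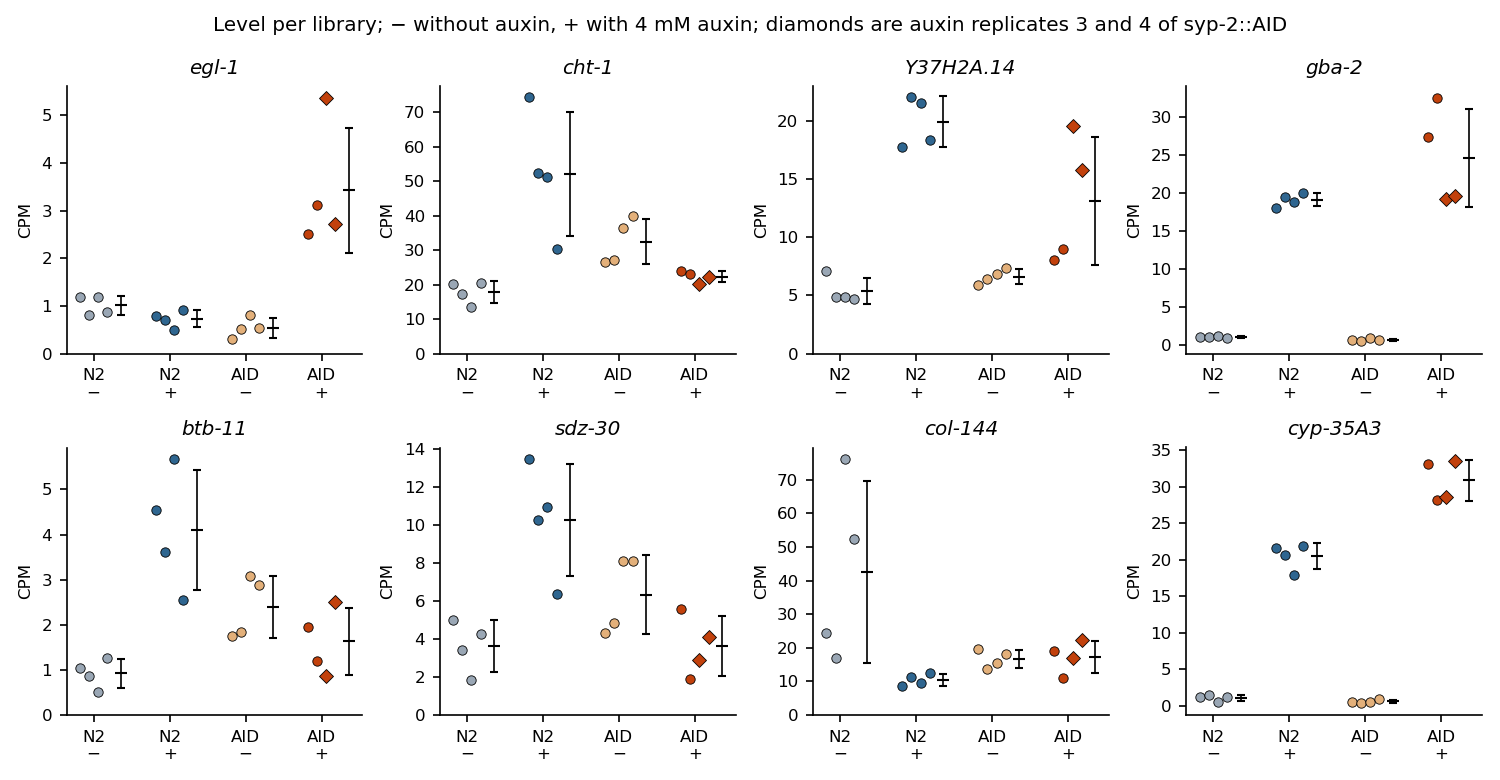
Level of 8 genes in each of the 16 libraries, in CPM, by group (N2 and *syp-2::AID*, shown as AID, without and with auxin). Points are libraries, diamonds mark the outlying pair, and the bar beside each group is its mean with the SD (n = 4). *egl-1* is high in the *syp-2::AID* auxin group alone (2.52 to 5.36 CPM), *cht-1* is highest in N2 worms on auxin (30.3 to 74.6 CPM), and *gba-2* and *cyp-35A3* are raised by auxin in both strains.

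Programmed cell death in the worm runs from EGL-1 through CED-9 and CED-4 to the caspase CED-3, and dying cells are then engulfed by their neighbours. Of the 13 genes of a core apoptosis list that were tested, *egl-1* alone passed. At an unadjusted p under 0.05, 5 were higher (38.5%, against 11.3% of all genes) and 1 was lower, and without the outlying pair *egl-1* was the 1 higher gene and none was lower. The other higher genes were *crn-1*, *icd-1*, *cyn-13* and *cps-6*, with differences of 0.45 to 0.55, and of 0.13 to 0.21 without the pair. The genes acting after *egl-1* showed differences of 0.13 for *ced-9*, -0.37 for *ced-4*, the lower one, and -0.30 for *ced-3*, which became 0.15 without the pair. *cep-1*, the p53 homologue that can switch *egl-1* on after DNA damage, had a difference of -0.18. The median over the list was 0.13, against -0.02 over all genes tested. For 8 engulfment genes, among them the receptor gene *ced-1* at -0.39, the median was 0.01, and no member passed in edgeR or DESeq2 (*psr-1* and *ced-2* were higher at an unadjusted p under 0.05 in edgeR, 25% of the list). Both medians, and the differences of *ced-9*, *ced-3*, *cep-1* and *ced-1*, changed sign under at least 1 of the other settings.

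The 7 lists of meiotic genes held no member past the threshold in edgeR or in DESeq2. At an unadjusted p under 0.05 in edgeR each held 0 to 3 members with a higher and 0 to 2 with a lower response. These were 0 to 18.8% and 0 to 8% of a list, against 11.3% and 6.27% of all genes. *dsb-2*, required for meiotic double-strand breaks (DSBs), was at 33.02, 34.8, 42.0 and 42.4 CPM with auxin and at 29.9, 31.9, 32.1 and 31.6 CPM without it in *syp-2::AID* worms. In N2 worms *dsb-2* was at 31.2, 30.97, 31.2 and 30.3 CPM with auxin and at 29.6, 32.5, 30.01 and 25.05 CPM without it. Its difference was 0.20 (95% interval -0.09 to 0.49, adjusted p = 0.441 from edgeR) and 0.04 (95% interval -0.21 to 0.28) without the outlying pair, and *exl-1* overlaps it on the other strand. *chk-2*, which encodes the kinase that drives pairing and DSB formation, had a difference of -0.61 (95% interval -1.55 to 0.33, adjusted p = 0.464 from edgeR), and of -0.09 (95% interval -0.72 to 0.54) without both libraries. In *syp-2::AID* worms on auxin *chk-2* was at 6.24, 7.56, 3.62 and 1.74 CPM, so that replicates 3 and 4 held the low values, and at 9.15, 10.3, 6.92 and 5.69 CPM without auxin.

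*spo-11*, which encodes the enzyme that makes meiotic DSBs, was at 35.6 and 42.0 CPM in the outlying pair and between 11.9 and 19 CPM in the 14 other libraries. Its difference of 0.90 (adjusted p = 0.225 from edgeR) became 0.29 without both, and *enpl-1* overlaps it on the other strand. *him-8*, whose zinc-finger product pairs the X chromosomes, had a difference of 0.55 (adjusted p = 0.221 from edgeR), and 0.37 without both libraries. Over 8 genes of the SC and the HORMA-domain axis the median was 0.12, over 14 cohesin genes -0.04, over 16 genes of pairing and chromosome movement -0.02, and over 8 genes of DSB formation 0.07. The medians were 0.02 for 25 genes of recombination repair, 0.06 for 12 genes of crossovers and 0.08 for 13 genes of the DNA damage checkpoint. Each of these 7 medians changed sign under at least 1 of the other settings.

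Genes switched on in the early embryo had lower responses in *syp-2::AID* worms. Of 49 tested members of a list of early zygotic genes, 43 had a negative difference. At an unadjusted p under 0.05, 17 were lower (34.7%, against 6.27% of all genes), but none passed after adjustment in edgeR. DESeq2 called 5 of the 49 as lower, and 74 of all 11776 genes tested. The median response was 0.65 in N2 worms and -0.30 in *syp-2::AID* worms, and the median difference was -0.75, against -0.02 over all genes tested. Over the same 49 genes it was -0.54 without the outlying pair, with 40 negative and 19 at an unadjusted p under 0.05 as lower (against 4.73% of all genes in that fit).

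The *sdz* genes, whose zygotic expression depends on the maternal factor SKN-1, had some of the lowest differences on this list. *sdz-30* was at 13.5, 10.2, 10.9 and 6.34 CPM in N2 worms with auxin and at 4.97, 3.43, 1.85 and 4.28 CPM without it. The *syp-2::AID* libraries held *sdz-30* at 5.55, 1.91, 2.90 and 4.10 CPM with auxin and at 4.30, 4.81, 8.11 and 8.08 CPM without it. The groups were thus apart in N2 worms and overlapped in *syp-2::AID* worms. The difference was -2.29 for *sdz-30*, -2.13 for *sdz-28* and -2.08 for *sdz-14* (adjusted p of 0.174 to 0.181 from edgeR), and these became -2.24, -2.25 and -2.07 without the outlying pair. All 3 rose in N2 worms, with log2 responses of 1.49 to 1.55 and adjusted p of 0.0154 to 0.0356 from edgeR.

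*nhr-2*, a nuclear hormone receptor gene active in early embryos, and *elt-1*, which encodes the GATA factor that specifies the epidermis, fell in *syp-2::AID* worms (log2 responses -0.76 and -0.70, adjusted p = 0.0442 and 0.0464 from edgeR) and had responses of 0.62 and 0.37 in N2 worms that did not pass. Their differences were -1.38 and -1.07, with adjusted p of 0.174 and 0.182 from edgeR. Without the outlying pair these were -1.16 and -0.75, and the fall of *elt-1* in *syp-2::AID* worms no longer passed. *sdc-2*, which directs the dosage compensation complex to the X chromosomes of hermaphrodites, had a difference of -1.58, and -1.20 without both libraries.

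Besides *nhr-2* and *sdc-2*, which are not on the early zygotic list, some other genes outside it had a similar pattern. *btb-11*, a BTB-domain gene, was at 4.55, 3.62, 5.67 and 2.56 CPM in N2 worms with auxin and at 1.05, 0.874, 0.517 and 1.27 CPM without it. The level of *btb-11* in *syp-2::AID* worms was 1.95, 1.21, 0.870 and 2.50 CPM with auxin and at 1.76, 1.83, 3.08 and 2.87 CPM without it, and there the groups overlapped. The difference was -2.67 for *btb-11* and -2.52 for *btb-10* (adjusted p = 0.174 from edgeR for both). *fbxb-104*, an F-box gene, had a difference of -3.41 at a level of 0 to 2.27 CPM, and *F55G1.7* one of -1.61 (adjusted p = 0.174 from edgeR for both). Among 168 tested F-box and MATH-domain genes, 27 were lower at an unadjusted p under 0.05 (16.1%, against 6.27% of all genes). At that threshold 12 were higher (7.14%, against 11.3% of all genes). The median was -0.01, with 86 negative and 82 positive differences. Without the outlying pair 32 were lower and 3 higher, against 4.73% and 3.31% of all genes in that fit. The median was then -0.24, with 120 negative and 48 positive differences. None passed after adjustment in edgeR in either fit.

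The linker histone genes *his-24* and *hil-3* also had lower responses. *his-24* was at 63.2, 50.2, 53.5 and 27.9 CPM in N2 worms with auxin, at 19.7, 19.2, 13.4 and 23.7 CPM without it, and at 21.4 to 33.5 CPM in all 8 *syp-2::AID* libraries. It rose in N2 worms (1.35, adjusted p = 0.000851 from edgeR), its response in *syp-2::AID* worms was 0.07, and the difference was -1.29 (adjusted p = 0.174 from edgeR). *hil-3* rose in N2 worms (1.11, adjusted p = 0.00393 from edgeR), and its difference was -1.23. *hil-7* had a difference of -1.59, and of -3.21 without N2 untreated replicate 4, *hil-4* and *hil-5* had differences of 0.55 and 0.52, and the median over the 7 tested linker histone genes, 0.10, changed sign under some other settings.

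The summed level of 12 genes that mark early embryos moved with these results. Most of the sum came from *vet-6* and *pes-10*, with means of 13.4 and 3.36 CPM over the libraries, and the next, *ceh-51*, had 0.73 CPM. The sum was 42.4, 40.4, 33.1 and 16.4 CPM in N2 worms with auxin and 15.8, 12.3, 6.21 and 22.98 CPM without it, and so overlapped. In *syp-2::AID* worms it was 18.6, 9.92, 6.60 and 9.80 CPM with auxin and 15.2, 13.02, 28.8 and 28.4 CPM without it, again with overlap. Of the 12 markers, 6 passed the filter, 5 of them with a negative difference, and *med-1* had no count. The adults carry embryos in the uterus, all 12 markers also belong to the early zygotic list, and the part that the number or age of embryos had in these results was not tested. N2 auxin replicate 4 was the lowest and N2 untreated replicate 4 the highest library of its group in this sum. Ranked by *cht-1*, the libraries fell in the same order as by this sum in both N2 groups and in auxin-treated *syp-2::AID* worms. In untreated *syp-2::AID* worms the order differed, and a link between *cht-1* and the sum was not tested. With each library left out in turn, the list median lay between -0.97 and -0.60.

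**Figure D2:**
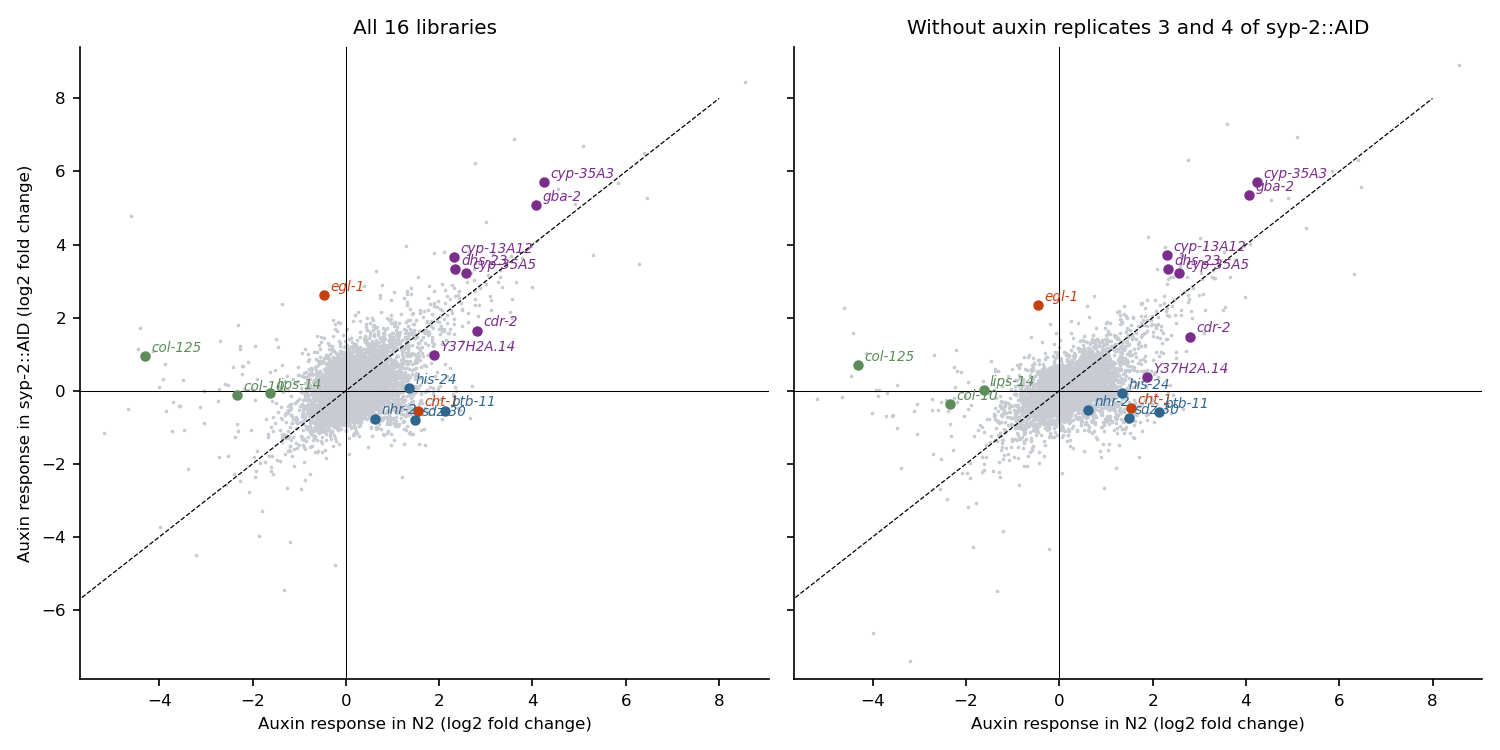
Auxin response in *syp-2::AID* worms against the response in N2 worms, on the log2 scale, for the genes tested (grey) with all 16 libraries (left) and without the outlying pair (right). The dashed line marks equal responses. *egl-1* lies above the line (2.62 against -0.46), *cht-1*, *btb-11*, *sdz-30* and *his-24* lie below it, and *col-125* and *col-10* lie to its left, with a response below 0 in N2 worms.

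Cuticle collagen genes, which build the exoskeleton made by the epidermis, had higher responses in *syp-2::AID* worms. Of 108 tested, 91 had a positive difference. At an unadjusted p under 0.05, 34 were higher (31.5%, against 11.3% of all genes), but none passed after adjustment in edgeR. DESeq2 called 10 of the 108 as higher, and 57 of all 11776 genes tested. The median response was -0.69 in N2 worms, where 20 fell (1.44% of all genes did) and none rose, and 0.12 in *syp-2::AID* worms, where 1 rose and none fell. As a share of all reads, *col* genes overlapped between the N2 groups, at 3.17% to 5.79% without auxin and 3.86% to 5.10% with it. The median difference was 0.54, and 0.32 without the outlying pair, with 88 positive.

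*col-144* was at 24.5, 17.1, 76.2 and 52.5 CPM in untreated N2 worms and at 8.58, 11.3, 9.66 and 12.6 CPM in auxin-treated ones. For *col-144* in *syp-2::AID* worms the level was 19.6, 13.7, 15.5 and 18.1 CPM without auxin and at 19.1, 11.1, 16.8 and 22.5 CPM with it. It fell in N2 worms (-2.02, adjusted p = 0.00203 from edgeR), while the *syp-2::AID* groups overlapped, and the difference was 2.07 (adjusted p = 0.174 from edgeR). Untreated N2 replicates 3 and 4 held the high values. *col-10* followed the same course, with 70.1 and 50.9 CPM in these 2 libraries, 14.7 and 21.1 CPM in the other untreated N2 libraries and a difference of 2.21. *col-125* had a difference of 5.25 (95% interval 2.95 to 7.55), between 2.96 and 41.5 CPM in untreated and between 0.512 and 1.81 CPM in auxin-treated N2 worms, and *best-7* overlaps it on the other strand. With each library left out in turn, the collagen median lay between 0.36 and 0.74. The lowest value came without N2 untreated replicate 4, with 32 genes higher and 5 lower at an unadjusted p under 0.05 from edgeR.

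*lips-14*, a lipase gene, was at 3.79, 5.51, 4.43 and 5.48 CPM in untreated N2 worms and at 1.02, 1.07, 2.00 and 2.13 CPM with auxin, so that the groups did not overlap. *lips-14* in *syp-2::AID* worms was at 4.24, 3.35, 3.25 and 3.41 CPM without auxin and at 3.43, 3.75, 2.03 and 4.38 CPM with it. It fell in N2 worms (-1.62, adjusted p = 0.00126 from edgeR), and the difference was 1.56, and 1.63 without the outlying pair (adjusted p = 0.174 and 0.259 from edgeR).

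Several families of short, highly expressed genes had higher responses that shrank once the outlying pair were left out. All 80 tested genes for cytosolic ribosomal proteins had a positive difference, with a median of 0.70 and 73 at an unadjusted p under 0.05 (91.2%, against 11.3% of all genes). Without both libraries the median was 0.17, and 78 of the 80 differences stayed positive. At an unadjusted p under 0.05, 4 of the 80 genes were then higher, against 3.31% of all genes in that fit. *rpl-21* was at 1443, 1553, 2428 and 2324 CPM in *syp-2::AID* worms with auxin, so that replicates 3 and 4 were the high ones, and at 1642, 1579, 1323 and 1396 CPM without it. In N2 worms *rpl-21* was at 1338, 1394, 1439 and 1567 CPM with auxin and at 1965, 2312, 2108 and 1711 CPM without it, and the groups did not overlap. Its difference fell from 0.88 to 0.51 when both libraries were left out. For 66 mitochondrial ribosomal protein genes the median went from 0.36 to 0.05, and for the 14 Sm and Lsm genes of RNA splicing and decay from 0.57 to 0.13. *lsm-5* was at 128 and 135 CPM in the outlying pair and between 50.96 and 75.1 CPM in the other 14 libraries.

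Core histone genes showed the same shift in part. Of 24 tested, 20 had a positive difference, with a median of 0.62 and of 0.24 without the outlying pair. *his-59* was at 8.99, 9.98, 14.1 and 18.1 CPM with auxin and at 8, 7.53, 6.27 and 5.75 CPM without it in *syp-2::AID* worms, and these groups did not overlap. It rose there (0.89, adjusted p = 0.0116 from edgeR), its response in N2 worms was -0.47, and the difference was 1.36, and 0.93 without both libraries (adjusted p = 0.174 and 0.259 from edgeR). The rise of *his-59* in *syp-2::AID* worms no longer passed without both libraries. Copies of the core histone genes are nearly identical, so reads may be split among them.

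Among antimicrobial effector genes the direction rested on the same libraries, since the median over 67 genes was 0.35 with them and -0.08 without them. *nlp-34*, an antimicrobial peptide gene of the epidermis, was at 8.07, 10.9, 34.9 and 36.9 CPM in *syp-2::AID* worms with auxin and at 1.26 to 3.03 CPM without it. Its difference went from 2.64 to 1.39, that of *nlp-29* from 1.21 to 0.45 and that of *cnc-7* from 2.05 to 0.84. *sip-1*, a small heat shock protein gene, was at 1543, 1626, 2283 and 2343 CPM in *syp-2::AID* worms with auxin and at 1220 to 1391 CPM without it. It rose in *syp-2::AID* worms (0.58, adjusted p = 0.00894 from edgeR), its response in N2 worms was -0.24, and its difference was 0.82, and 0.52 without both libraries. The rise in *syp-2::AID* worms no longer passed without both libraries. *F43D9.8* overlaps *sip-1* on the other strand.

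Over all genes the difference followed exon length. Genes were divided by exon length into 4 bins of nearly equal size. In the shortest bin (median 654 bases) the median difference was 0.29, and in the next bins (medians of 1181, 1745 and 3047.5 bases) it was 0.10, -0.05 and -0.27. The response in N2 worms showed no such course, with medians of -0.01, 0.01, 0.02 and 0.02. Without the outlying pair the median difference lay between -0.0067 and -0.00017 in the 4 bins, and genes with a higher response at an unadjusted p under 0.05 in the shortest bin went from 666 to 109. With each library's trend with length removed from all 16 libraries, 1 gene was higher and 8 were lower. *egl-1* and *cht-1* were among these 9, as were *btb-10*, *btb-11*, *cdr-2*, *his-24*, *hil-3* and *fbxb-104*, and *skr-12*, which was named after its value was seen.

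**Figure D3:**
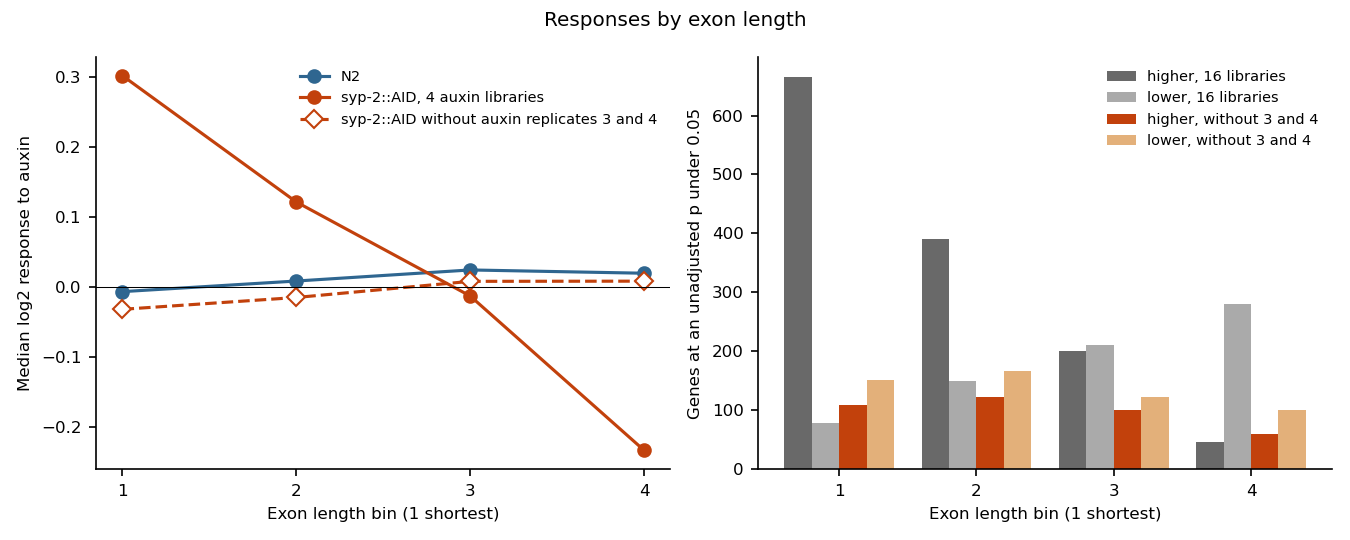
Median auxin response by bin of exon length in each strain (left) and the number of genes whose response differed between the strains at an unadjusted p under 0.05 (right). The *syp-2::AID* median fell from 0.30 to -0.23 from the shortest to the longest bin with all 4 auxin libraries and lay between -0.03 and 0.01 without replicates 3 and 4. In the shortest bin 666 genes were higher and 78 lower with 16 libraries, and 109 and 151 without them.

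Every gene that passed the test for auxin in both strains moved in the same direction in both. Auxin changed 848 genes in *syp-2::AID* worms (7.2%), of which 621 rose and 227 fell (1.93% of those tested), and 640 in N2 worms (5.43%, 470 up and 170 down). The 362 genes called in both were 42.7% of the first set and 56.6% of the second, 283 rose in both, 79 fell in both, and none changed in opposite directions. Of the 283, 164 had the larger rise in *syp-2::AID* worms. The median rise was 1.44 in *syp-2::AID* and 1.34 in N2 worms, and the median fall was -0.89 and -0.90. Of the 362 genes, 56 differed between the strains at an unadjusted p under 0.05, as 17.6% of all genes tested did, and none passed after adjustment. Without the outlying pair the strain with more calls was N2, with 1577 genes (12.9%, 6.97% up and 5.96% down) against 444 in *syp-2::AID* worms (3.64%, 2.62% up and 1.03% down). The 355 called in both were then 22.5% of the N2 set and 80% of the *syp-2::AID* set, again with none in opposite directions. In this fit the *syp-2::AID* response rested on fewer libraries than the N2 response, so these counts cannot be compared directly between the strains. The N2 libraries were the same in both fits, with 640 and 1577 calls, while the filter, factors and spread were estimated anew. A call in 1 strain only is not a difference between strains, which was tested for each gene by the comparison above.

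Of the *cyp-35* genes, cytochrome P450 genes that respond to foreign compounds, 8 were tested, 8 rose in N2 worms and 7 in *syp-2::AID* worms, against 3.99% and 5.27% of all genes, and these counts were the same without the outlying pair (6.97% and 2.62% of all genes). A gene could pass the filter through its auxin libraries alone, so the share that rose may be partly set by the filter. The median response was 3.08 in N2 and 3.63 in *syp-2::AID* worms, and the median difference was 0.46, and 0.51 without the pair. *cyp-35A1* had no count in untreated N2 worms, so its difference is not given, and over the other 7 genes the medians were 0.65 and 0.66. With 10 counts required in every library, 4 *cyp-35* genes were tested, and the median difference was 0.16. *cyp-35A3* was at 33.1, 28.2, 28.6 and 33.5 CPM in *syp-2::AID* worms with auxin and at 0.366 to 0.898 CPM without it. In N2 worms *cyp-35A3* was at 21.5, 20.6, 17.9 and 21.8 CPM with auxin and at 0.517 to 1.48 CPM without it. Auxin raised it in both strains with no overlap, and the treated *syp-2::AID* libraries lay above the treated N2 ones. The untreated levels were low in both strains, overlapped and reached lower in *syp-2::AID* worms, so they also enter the difference. The log2 responses were 5.71 and 4.25, and the difference was 1.46 (95% interval 0.75 to 2.17, adjusted p = 0.174 from edgeR), and 1.46 without both libraries. *cyp-35A5* followed with 0.65, whereas *cyp-35C1* had a difference of 0.07 that was negative under 5 of the other settings.

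*gba-2*, *cyp-13A12* and *dhs-23* also rose in both strains. *gba-2*, a glucocerebrosidase gene, was at 27.3, 32.4, 19.1 and 19.6 CPM with auxin in *syp-2::AID* worms and at 18.1, 19.5, 18.8 and 20.0 CPM in N2 worms, from 0.523 to 1.26 CPM without auxin. The outlying pair were thus within the N2 range. The difference, into which the low untreated levels also enter, was 1.00, and 1.28 without the pair (adjusted p = 0.218 and 0.155 from edgeR). *gba-1* overlaps it on the other strand. *cyp-13A12*, another cytochrome P450 gene, had responses of 3.66 in *syp-2::AID* and 2.31 in N2 worms and a difference of 1.35, and of 1.39 without both libraries. *dhs-23*, a short-chain dehydrogenase gene, had responses of 3.34 and 2.34 and a difference of 1.00, and of 1.00 without both libraries. *cyp-25A1* rose in *syp-2::AID* worms (1.34, adjusted p = 4.6e-05 from edgeR), its response in N2 worms was 0.41 (adjusted p = 0.186 from edgeR), and the difference was 0.94 (adjusted p = 0.174 from edgeR).

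Over 45 tested genes of fatty acid activation and beta-oxidation, which break down fatty acids, the median difference was 0.04, and -0.02 without the outlying pair. At an unadjusted p under 0.05, 1 was higher (2.22%, against 11.3% of all genes) and 6 were lower (13.3%, against 6.27%). The catalase genes *ctl-1* and *ctl-2*, whose products break down hydrogen peroxide, rose in both strains, and their differences were 0.50 and 0.47. For *daf-22*, which encodes the thiolase that ends ascaroside side-chain shortening, the rise was 1.38 in *syp-2::AID* and 0.92 in N2 worms, and the difference was 0.46. *clec-210*, a C-type lectin gene, rose by 2.53 and 1.76, with a difference of 0.77. *Y54G11A.7* overlaps *ctl-2* on the other strand. For these 4 genes the adjusted p of the difference was 0.199 to 0.221 from edgeR. Among genes that fell in both strains, *hacd-1*, a hydroxyacyl-CoA dehydrogenase gene, had responses of -1.56 in *syp-2::AID* and -1.04 in N2 worms and a difference of -0.52. *mthf-1*, which encodes methylenetetrahydrofolate reductase, had responses of -1.03 and -0.60 and a difference of -0.43.

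Some genes that respond to cadmium had lower responses in *syp-2::AID* worms. Of 11 tested in a list of metallothionein and cadmium response genes, 7 rose in *syp-2::AID* worms and 6 in N2 worms (5.27% and 3.99% of all genes did), with median responses of 0.65 and 1.30. Without the outlying pair 5 and 7 rose, against 2.62% and 6.97% of all genes. The response was lower at an unadjusted p under 0.05 for 3 genes (27.3%, against 6.27% of all genes), and the median difference was -0.37, and -0.38 without the pair. *cdr-2* was at 13.2, 14.5, 15.1 and 17.6 CPM in N2 worms with auxin and at 2.68, 2.35, 1.77 and 1.80 CPM without it. *cdr-2* in *syp-2::AID* worms was at 14.8, 15.7, 18.3 and 19.7 CPM with auxin and at 4.36, 4.92, 6.33 and 6.17 CPM without it. The treated levels thus overlapped between the strains, while all untreated *syp-2::AID* libraries lay above the untreated N2 ones. Its responses were 1.65 and 2.80, and the difference was -1.15, and -1.32 without the outlying pair (adjusted p = 0.174 and 0.155 from edgeR). *cdr-6* had a difference of -0.51 and *numr-1*, a metal-responsive gene, one of -1.24, whereas the metallothionein gene *mtl-1* had one of 1.42 that did not pass, and of 0.77 without both libraries. *pgp-9*, an ABC transporter gene, rose in N2 worms (1.51, adjusted p = 7.49e-05 from edgeR) and had a difference of -0.89, and of -0.54 without both libraries.

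Genes of fatty acid synthesis and desaturation had lower responses. Of 17 tested, 13 had a negative difference, with a median of -0.40 and 7 at an unadjusted p under 0.05 as lower (41.2%, against 6.27% of all genes). Without the outlying pair the median was -0.17, with 3 such genes (against 4.73% of all genes in that fit). The elongase gene *elo-2* was at 102, 103.8, 65.03 and 64.2 CPM in *syp-2::AID* worms with auxin, again with replicates 3 and 4 apart, and at 113 to 134 CPM without it. Its difference was -0.78, and -0.48 without both libraries. *elo-1* had differences of -0.64 and -0.37. *fat-4*, a desaturase gene, rose in N2 worms (0.34, adjusted p = 0.0174 from edgeR), its response in *syp-2::AID* worms was -0.06, and the difference was -0.40. *fat-5*, which encodes a desaturase of palmitic acid, went the other way, since it fell in N2 worms (-0.86, adjusted p = 0.00012 from edgeR), had a response of -0.26 in *syp-2::AID* worms and a difference of 0.60. *twk-42* overlaps it on the other strand.

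*alh-13*, an aldehyde dehydrogenase family gene, fell in *syp-2::AID* worms, from 41.0, 41.8, 41.6 and 42.3 CPM to 29.2, 28.4, 23.3 and 23.9 CPM with auxin (-0.67, adjusted p = 0.00129 from edgeR). In N2 worms *alh-13* was at 37.3, 38.5, 30.1 and 30.9 CPM without and at 39.0, 36.1, 38.6 and 28.4 CPM with auxin, and these groups overlapped. The difference was -0.72, and -0.59 without the outlying pair (adjusted p = 0.174 and 0.306 from edgeR). *glct-6*, a glucuronosyltransferase-like gene, had a difference of 0.87, with responses of 0.42 in *syp-2::AID* and -0.44 in N2 worms, neither of which passed. *dnj-22*, which encodes a J-domain protein, rose in *syp-2::AID* worms (0.59, adjusted p = 0.0147 from edgeR) and had a difference of 0.81, and of 0.44 without both libraries.

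**Figure D4:**
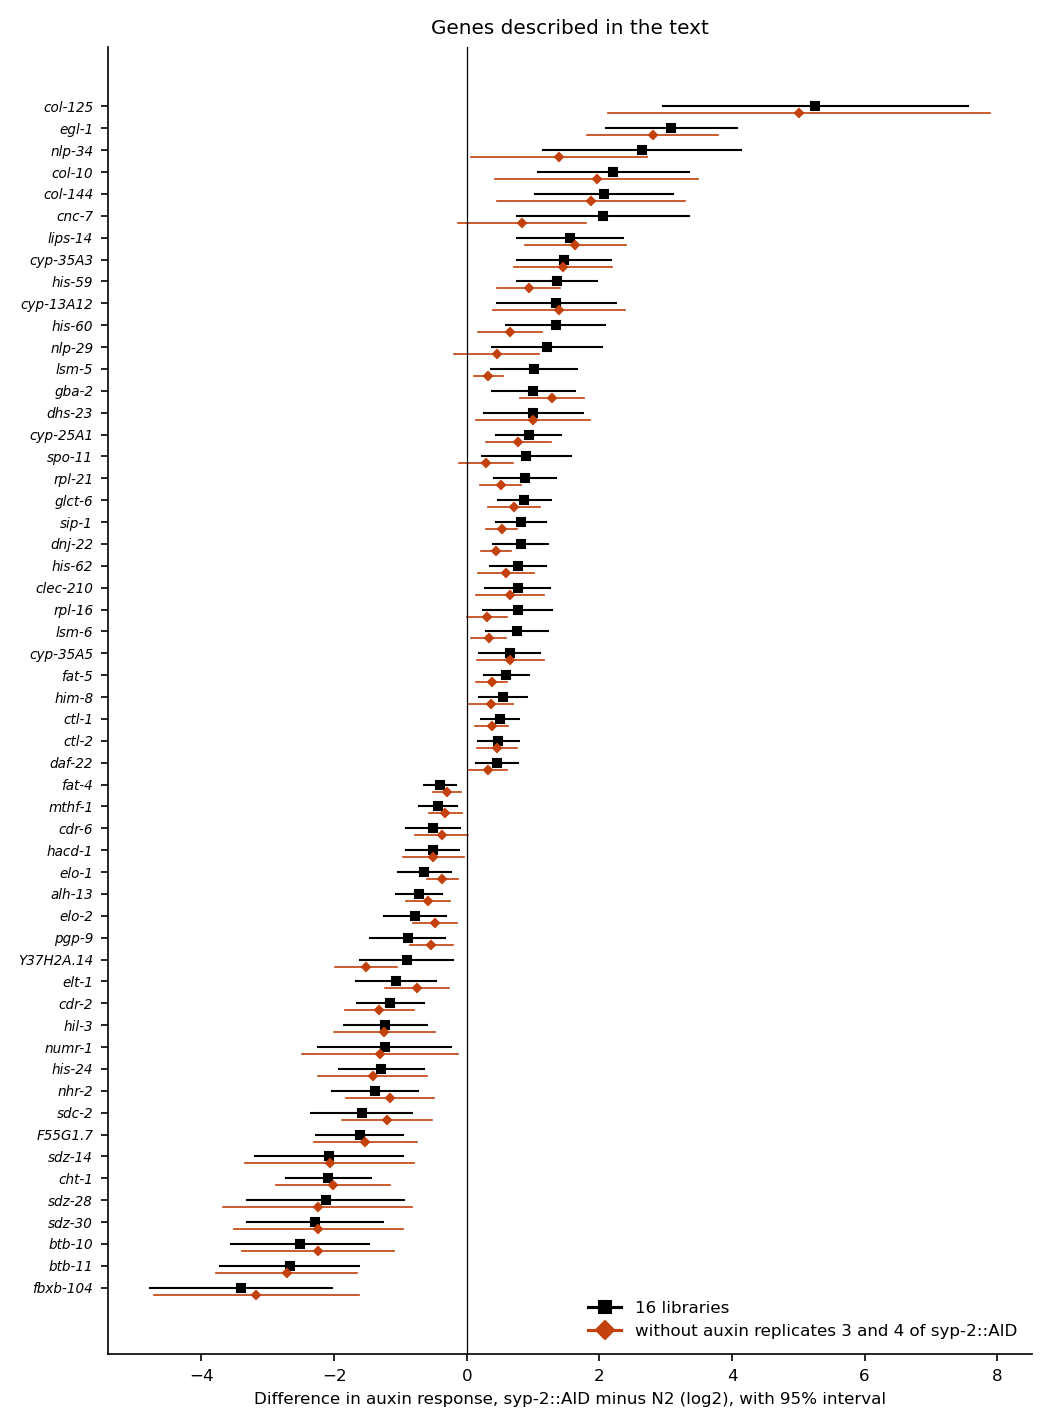
Difference in auxin response (*syp-2::AID* minus N2, log2 scale) of 55 genes described in the text, with its 95% interval, from all 16 libraries (black squares) and without the outlying pair (orange diamonds). *egl-1* (3.08 and 2.80) and *cht-1* (-2.09 and -2.02) move little between the fits, while *nlp-34* (2.64 and 1.39) and *lsm-5* (1.02 and 0.32) move more.

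**Figure D5:**
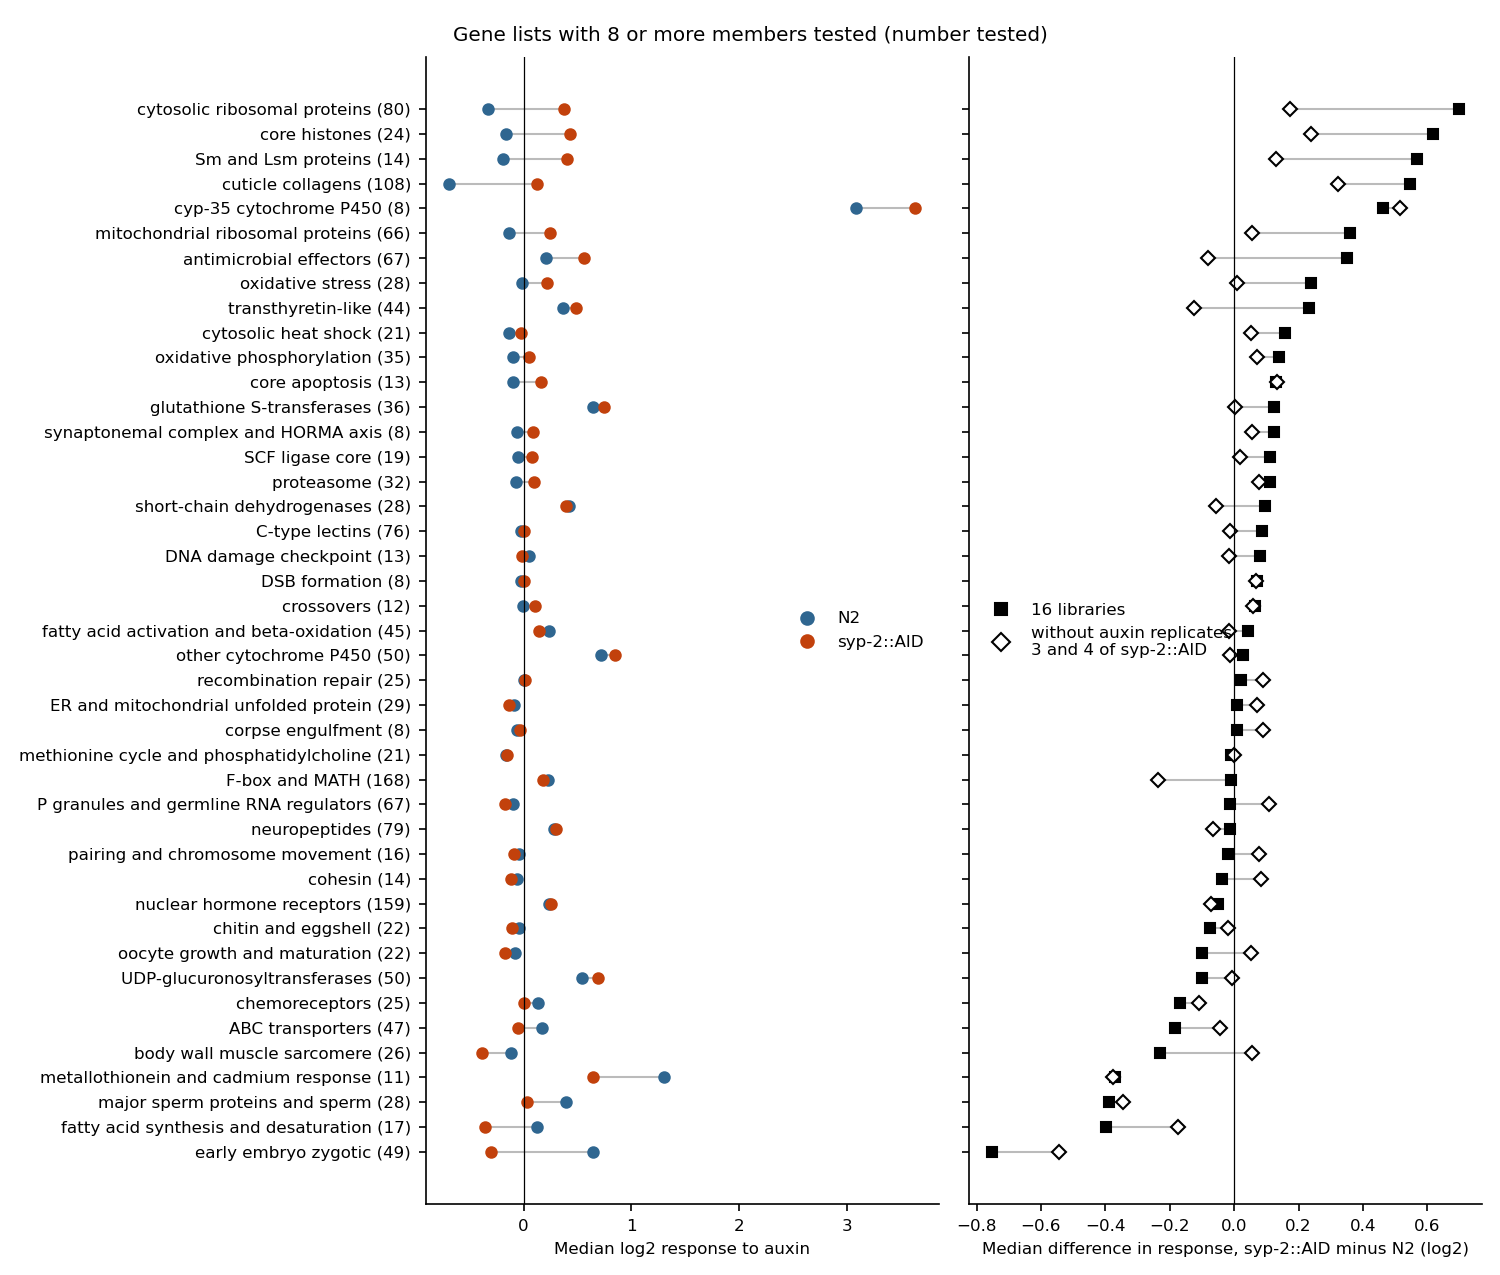
Median over the tested members of each gene list with 8 or more of them (number in brackets), for the auxin response in N2 and *syp-2::AID* worms (left) and for the difference between the strains with all 16 libraries and without the outlying pair (right). Early zygotic genes lie lowest (-0.75 and -0.54), cytosolic ribosomal protein genes lie highest with 16 libraries (0.70) and move to 0.17, and cuticle collagens keep 0.32 of 0.54.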

How the data were processed

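RNA was sequenced from whole worms in 16 libraries, 4 per group. The authors aligned reads to ce10 with TopHat2 2.0.11 and counted them per gene with featureCounts, and the deposited values are raw counts. Neither the annotation nor the strand setting is given in the sources used here, and no coordinates are printed. No column belonged to another sample (0 columns left out).

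Counts were analysed in R 4.3.3 with edgeR 4.0.16: TMM factors, the default filter at 10 counts, and the robust quasi-likelihood test with the 4 groups fitted together on 16 libraries, with Benjamini and Hochberg adjustment over all genes tested. The biological coefficient of variation was 0.185. CPM uses the same factors. The p-values measure the spread between the biological replicates. Exon lengths, available for 11465 tested genes, and the overlaps between genes were taken from the WBcel235 annotation.

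The genes named are *egl-1*, *dsb-2*, *chk-2* and *syp-2*, those past the test with or without the outlying pair (*syp-2::AID* auxin, replicates 3 and 4), the 15 of lowest p in each direction at 1 CPM or more, up to 4 of lowest p per list, and genes called in both strains with the largest differences (up to 10 in each direction). The other list members of apoptosis, histones, cadmium response and *cyp-35* in the text were named after their values were seen. The members and the 49 lists were chosen with earlier results of these data known. A spreadsheet turned 11 gene names into dates, and these genes are not named.

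The alternatives were other scalings (RLE, upper-quartile, library totals only), DESeq2 1.42.0, limma-voom (limma 3.58.1) with and without sample quality weights, other filters, no robust estimation, the replicate number as a block, the trend with exon length removed, and leaving out each library or the outlying pair.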

Additional observations from a re-analysis of the deposited data

Results flagged for a closer look

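The auxin response differed between the strains by 3.08 on the log2 scale for *egl-1* and by -2.09 for *cht-1*, the 2 genes past the test of the difference itself. Among the genes described, 20 of 300 groups of 4 libraries held 1 library far from the other 3 by Dixon's test, which chance gives in about 1 of 20 groups, and 5 of the 20 were groups of auxin-treated *syp-2::AID* worms. The test looks for 1 library apart, so it can miss a group in which 2 are displaced together, as the outlying pair were.

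In N2 worms without auxin, replicate 4 stood apart for *elo-2* (102 CPM, others up to 80.8), *fat-4* (116 CPM, others up to 105) and *pgp-9* (20.4 CPM, others up to 15.4). Replicate 2 stood apart for *elo-1* (164 CPM, others up to 148), replicate 3 for *fat-5* (123 CPM, others from 134) and replicate 1 for *Y37H2A.14* (7.06 CPM, others up to 4.88). Replicate 4 was also high for *hil-7* (4.94 CPM, others up to 0.605), low for *ced-2* (73.3 CPM, others from 89.8) and at 0 CPM for *mtl-1* (others from 1.03 CPM). In N2 worms with auxin, replicate 2 was high for *cyp-13A12* (9.45 CPM, others up to 6.09) and *cyp-35C1* (70.96 CPM, others up to 63.3), replicate 4 low for *hil-3* (14.2 CPM, others from 26.1) and replicate 1 low for *rpl-16* (1681 CPM, others from 1848).

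In *syp-2::AID* worms with auxin, replicate 4 was high for *clec-210* (18.4 CPM, others up to 14.5) and *cyp-35C1* (123 CPM, others up to 101), replicate 3 high for *cyp-25A1* (12.1 CPM, others up to 8.97), replicate 2 low for *sdz-28* (1.27 CPM, others from 1.81) and replicate 1 high for *syp-2* (28.3 CPM, others up to 24.5). Without auxin, replicate 1 was high for *lips-14* (4.24 CPM, others up to 3.41) and replicate 2 low for *mtl-1* (0.105 CPM, others from 0.270).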

How the results depend on the processing

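The alternatives were run for both counts and for 75 genes. The difference changed sign for 5 of these, none of which passed under any alternative. With library totals only it was -0.038 for *ced-9* and -0.10 for *cyp-35C1*, with the length trend removed 0.18 for *cep-1* and 0.030 for *ced-1*, with limma-voom and sample quality weights 0.11 for *ced-3* and -0.051 for *cyp-35C1*, and without the outlying pair 0.15 for *ced-3*. With 1 library left out it was -0.029 to 0.18 for *cyp-35C1*. The counts of genes with a higher and a lower response in *syp-2::AID* worms, 1 and 1, became 57 and 74 with DESeq2, 49 and 151 with limma-voom and sample quality weights, 0 and 0 with plain limma-voom (1055 and 944 at an unadjusted p under 0.05), 0 and 1 with library totals only, 0 and 1 with 10 counts in every library (which removed *egl-1*), 1 and 8 with the length trend removed, and 0 and 1 without the outlying pair. The counts stayed at 1 and 1 with RLE or upper-quartile factors, no filter beyond 1 count, or no robust estimation. With each library left out in turn they were 0 to 1 higher and 0 to 2 lower, with adjusted p of 0.0402 to 0.126 for *egl-1* and 0.00111 to 0.108 for *cht-1* from edgeR. Across all alternatives the difference was 2.79 to 3.34 for *egl-1*, past the threshold in 10 of 27, and -2.28 to -1.87 for *cht-1*, past it in 12 of 28. Why the tools differ was not tested. With library totals only, the median of all genes shifted from -0.02 to -0.18.

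Replicate numbers did not pair the samples, since the deviations of same-numbered libraries correlated between -0.39 and 0.35, above 0.1 in 5 of 24 pairs. With the replicate number as a block, 0 genes were higher and 0 lower (1064 and 711 at an unadjusted p under 0.05), with differences of 3.05 for *egl-1* and -2.09 for *cht-1* (adjusted p = 0.107 from edgeR for both).

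List medians kept their sign under every alternative for early zygotic genes (-0.99 to -0.49), cuticle collagens (0.26 to 0.74), core histones (0.24 to 0.75) and cytosolic ribosomal proteins (0.17 to 0.85), each over the members tested in that fit. *egl-1*, at 0.303 to 5.36 CPM, is a gene of few reads.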

Other observations

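Among the lists the report does not describe, body wall muscle sarcomere genes (26 tested) had a median difference of -0.23 and of 0.05 without the outlying pair, and the summed level of 7 muscle markers was 1752 and 1848 CPM in these 2 libraries and between 2475 and 4548 CPM in the other 14. Transthyretin-like genes (44 tested) had medians of 0.23 and -0.13. Nuclear hormone receptor genes (159 tested) had medians of -0.05 and -0.07, and the 50 other cytochrome P450 genes tested had medians of 0.03 and -0.01, although their median response was 0.72 in N2 and 0.85 in *syp-2::AID* worms.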
